A study of Rattus norvegicus with 27 samples.

Results

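Total RNA of hippocampal CA1 was set against total RNA of CA3 in rats that had survived global brain ischemia and 8 h of reperfusion (8R). The 8 arrays of this comparison, 4 of 8R CA1 and 4 of 8R CA3, were taken by their labels from the 27 arrays of the series and were paired by the pool number in the sample descriptions. Each array held RNA of a region pooled from 5 male Long Evans rats whose age is not given in the sources used here. Ischemia was complete, normothermic and 10 min long, brought about by carotid artery occlusion together with hypovolemic hypotension. Sham-operated non-ischemic controls (NIC), 3 arrays of NIC CA1 and 3 of NIC CA3 total RNA, gave the regional difference without ischemia. RNA came from a post-mitochondrial supernatant of the dissected tissue, and 1 µg was labelled for each Affymetrix Rat Gene 2.0 array. The values are therefore shares of an equal mass of RNA and do not show how much RNA a region held. Each array is a pool, so the spread between arrays is a spread between pools of rats, not between animals.

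CA1 and CA3 are neighbouring fields of the hippocampal pyramidal cell layer. CA3 neurons receive the mossy fibres of dentate granule cells and send Schaffer collaterals to CA1. The fields differ in their vulnerability: after a brief global ischemia CA1 pyramidal neurons die with a delay of days, while most CA3 neurons survive. In the hours before that delayed death both fields transcribe stress genes, among them heat shock and unfolded protein response genes, and genes that neuronal activity induces.

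Of 36685 probe sets, 18511 carried 1 gene symbol. These stood for 18166 genes, each read from its brightest probe set. Tests covered the 12716 genes whose mean log2 intensity was at least 5.39, the 30th percentile. Values were log2(intensity + 16), which understates the change of dim genes, and every difference is CA1 minus CA3. The arrays of pool 4 stood apart. Deviations from the group means correlated at 0.54 between the CA1 and CA3 arrays of pool 4, and between -0.378 and -0.14 when a pool 4 array was set against the other region's arrays of another pool. Deviations from a mean cancel out within a group, so negative values across pools follow from the positive one and are no separate evidence. Median intensities ran from 30 to 32.1 in 8R CA1 and from 31 to 33.7 in 8R CA3. The median within-group SD over genes was 0.152 log2 in 8R CA1 and 0.149 in 8R CA3, against 0.100 in NIC CA1 and 0.104 in NIC CA3. The median standard error of the 8R regional difference, as moderated by limma, was 0.10 log2.

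In 8R, 788 genes (6.20% of those tested) were higher in CA1 than in CA3 and 735 (5.78%) were lower, or 12% in either direction, at a limma adjusted p under 0.05 with the pool as a block. The 8R counts within gene lists given below are to be read against these shares. A difference of at least 2-fold was found for 23 of the higher and 18 of the lower genes, and one of at least 1.5-fold for 128 and 87. The median difference over all genes tested was -0.01. All 4 pools had the same sign for 1403 of the 1523 called genes, where 28.5% of all genes tested did so. The 4 arrays of one region lay clear of the 4 of the other for 791 of them, where 9.47% of all genes did so, 5.39% with CA1 above and 4.07% with CA1 below. The calls were made on these same arrays, so both counts follow in part from the calling and add no support to it. Without the pool block the count was 433, and the calls of 24 of the 30 gene lists that had any fell by over 1.5 times. With the block the count was 792 without pool 1 and 1694 without pool 4. Higher genes made up 51.7% of the calls, 65.6% without pool 2 and 36.7% without pool 4. In tissue pools such as these, fewer cells of a type and less RNA per cell cannot be told apart.

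The 12 genes described in each direction were taken from called genes whose arrays did not overlap between the regions. Their lack of overlap is thus a rule of choice, not a result. Of the 12 genes with the largest excess in 8R CA1, Wfs1 and Ccn3 stood in the CA1 marker list, and Npas4, Arc and Ptgs2 in the lists of activity-induced genes. The extracellular matrix crosslinking enzyme gene Lox had the largest difference of all. Its intensities were 158, 77.97, 54.6 and 290.2 in 8R CA1 pools 1 to 4, against 17.5, 13.1, 8.43 and 15.7 in 8R CA3. The CA1 arrays spread over a wide range, with pool 4 highest and pool 3 lowest, and all stood above the CA3 arrays. The log2 difference was 2.22 ± 0.14 (limma's moderated SE), or 4.65-fold (limma adjusted p = 1.04e-16). Within pools 1 to 4 it was 2.38, 1.69, 1.53 and 3.27, a wider spread than that SE conveys. Limma draws each gene's error towards that of genes of like intensity, here and for every ± after a log2 difference. In NIC, Lox read 16.4, 20.3 and 13.7 in CA1 and 27.9, 19.8 and 20.96 in CA3, so that only the 8R CA1 arrays were above the level of the other total RNA groups. Those other groups read near the 16 added before the log. Lox may thus have passed the filter only through 8R CA1, the group in which it was high.

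Npas4, a transcription factor gene induced by neuronal activity, read 296, 228, 361 and 598 in 8R CA1 and 123, 46.6, 90.5 and 214 in 8R CA3. Within each pool CA1 was the higher, and the lowest CA1 array was above the highest CA3 array. The difference was 1.59 ± 0.11 (adjusted p = 2.95e-16). Ptgs2, which encodes the inducible cyclooxygenase, read 700.1, 458, 439.9 and 983 in 8R CA1 against 248, 198, 109.7 and 306 in 8R CA3, a difference of 1.52 ± 0.10 (adjusted p = 1.04e-16). Pools 1 and 4 were high in both regions and pools 2 and 3 lower, so the pool moved both values while the order of the regions stayed. Arc, whose mRNA is carried to active dendrites, read 507, 318, 376 and 654 in 8R CA1 and 223, 137, 138 and 238 in 8R CA3, with the same pools 1 and 4 on top in both regions and a difference of 1.25.

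The CA1 marker gene Wfs1, which encodes an endoplasmic reticulum membrane protein, read 455, 512, 853 and 516 in 8R CA1 against 193, 175, 155 and 148 in 8R CA3, a 3.18-fold difference (log2 1.67 ± 0.11, adjusted p = 3.26e-16). Pool 3 was the highest CA1 array, and no CA3 array came near the CA1 range. The neuropeptide gene Nts, for neurotensin, had 108, 103, 113 and 107 in 8R CA1 and 24.7, 25.7, 16.99 and 23.9 in 8R CA3. These CA1 arrays were almost level, and the difference was 1.68 ± 0.10. Htr1b, a serotonin receptor that couples to inhibitory G proteins, had 226, 191, 248 and 255 in 8R CA1 and 85.5, 72.3, 68.97 and 62.2 in 8R CA3 (difference 1.48). Epha7, a receptor for ephrin guidance cues, had 235, 192, 235 and 253 in 8R CA1 and 73.9, 74.3, 82.7 and 58.3 in 8R CA3 (difference 1.47). In both genes the CA1 arrays formed a narrow band that was well above CA3.

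Wnt2, Ccn3 and Cacng3 were also among the 12 genes with the largest excess in CA1 and differed by 1.22 to 1.29 log2. Wnt2, a secreted signalling ligand, had 97.4 ± 14.7 in 8R CA1 and 30.2 ± 3.09 in 8R CA3 (SD, n = 4 each). Ccn3, a matricellular protein gene used as a CA1 marker, had 164 ± 41.1 in 8R CA1 and 59.6 ± 11.3 in 8R CA3. For Cacng3, an auxiliary subunit of AMPA receptors, the means were 366 ± 125 in 8R CA1 and 143 ± 11.1 in 8R CA3, with pool 4 the highest CA1 array at 551.

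**Figure D1:**
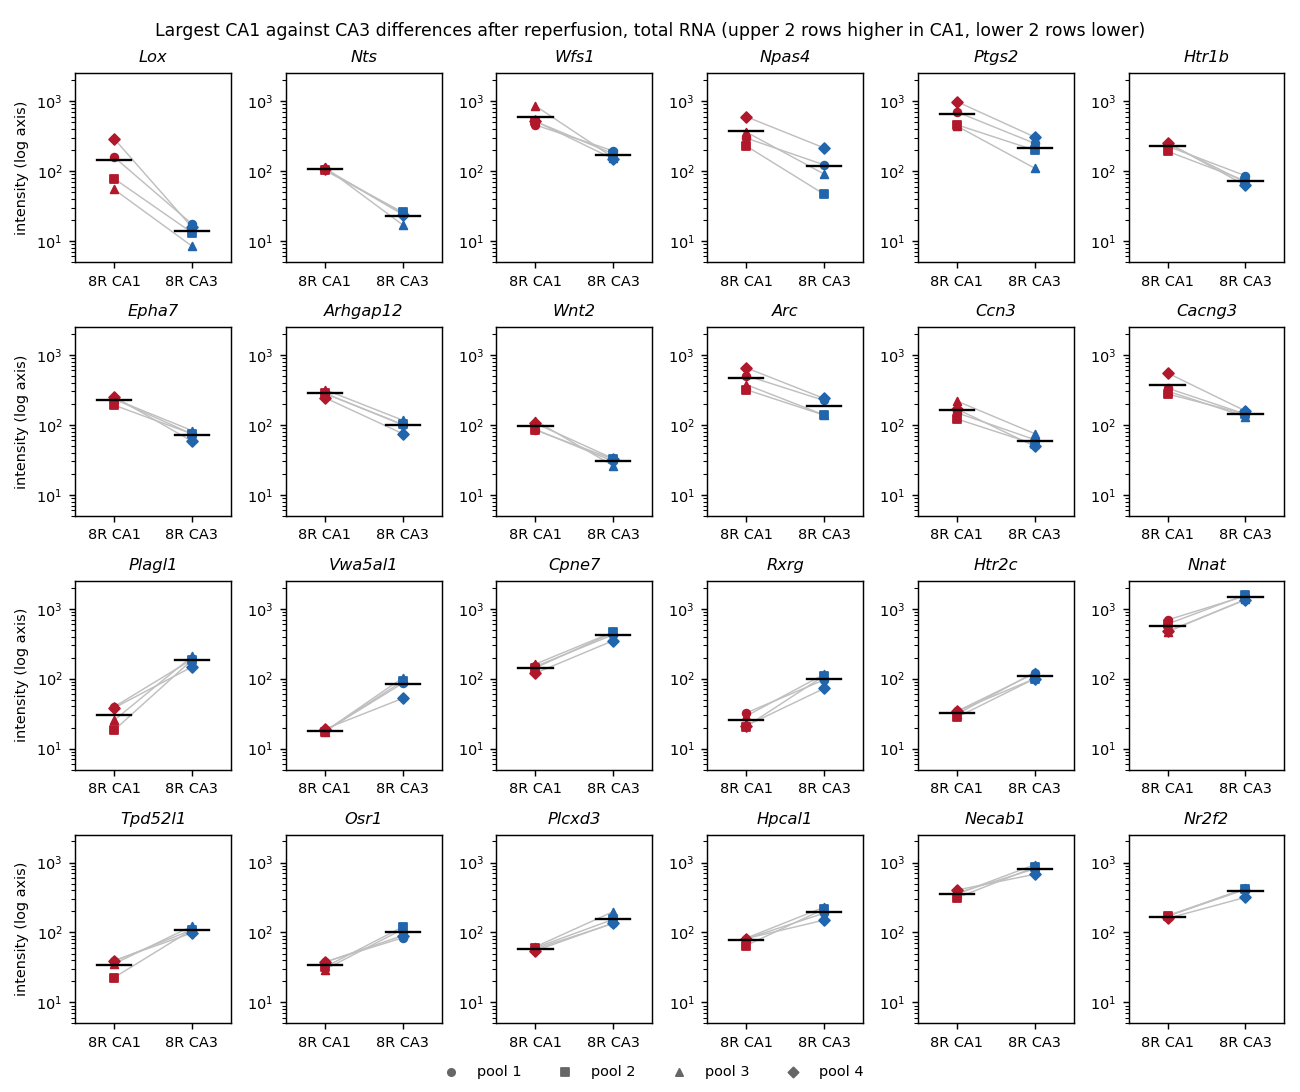
Intensity on a log axis of the 24 genes with the largest called differences whose arrays did not overlap, in 8R CA1 (red, left) and 8R CA3 (blue, right) total RNA. Symbols are the 4 pools, grey lines join the arrays of a pool and bars are means. The upper rows hold the 12 genes higher in CA1 and the lower rows the 12 that were lower. Every grey line of a gene runs the same way, which the choice by non-overlapping arrays fixed in advance.

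Of the 12 genes with the largest deficit in 8R CA1, Rxrg alone stood in the CA3 marker list. Plagl1, an imprinted zinc finger transcription factor gene, read 39.4, 18.3, 25.3 and 38.1 in 8R CA1 against 188, 185, 207 and 147 in 8R CA3. All CA1 arrays lay far below the CA3 arrays, and the difference was -2.11 ± 0.11 (adjusted p = 4.38e-19). Vwa5al1 had 17.7, 17.5, 17.5 and 19.02 in 8R CA1 and 85.9, 92.2, 102 and 52.2 in 8R CA3 (difference -1.52), with pool 4 the lowest CA3 array. Rxrg, the gamma retinoid X receptor, read 32.3, 20.7, 29.2 and 21.2 in 8R CA1 and 96.2, 109.7, 115 and 72.3 in 8R CA3, again with pool 4 the lowest CA3 array (difference -1.45).

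Cpne7, of the calcium-dependent phospholipid-binding copines, read 149, 143, 162 and 119.8 in 8R CA1 and 426, 459, 465 and 350.2 in 8R CA3. No CA1 array came near the CA3 range, and the difference was -1.47 ± 0.09. The serotonin receptor gene Htr2c, which couples to Gq, had 34.1, 27.99, 31 and 33.98 in 8R CA1 and 119, 99.9, 123 and 99.9 in 8R CA3 (difference -1.40). Htr2c and Htr1b stood at opposite ends of the comparison. Nnat, the imprinted neuronatin gene, had 691, 603, 467 and 475 in 8R CA1 and 1524, 1577, 1359.9 and 1342 in 8R CA3 (difference -1.37).

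The remaining 6 of the 12 genes with the largest deficit in CA1 began with Tpd52l1 (-1.34) and the zinc finger gene Osr1 (-1.22). Then came the phospholipase C domain gene Plcxd3 (-1.19), the calcium-binding protein genes Hpcal1 (-1.17) and Necab1 (-1.16), and the nuclear receptor gene Nr2f2 (-1.14). Nr2f2, also called COUP-TFII, averaged 169 ± 6.68 in 8R CA1 and 394 ± 51.4 in 8R CA3 (SD, n = 4 each). All 24 genes kept their direction and their call in each of the 14 alternatives that tested all of them, leaving out any pool and dropping the pool block included. At a filter on the 50th percentile 23 were still tested, and these kept both.

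Setting the 8R difference beside that of the controls asks which regional differences were there without ischemia. In NIC, 692 genes (5.44%) were higher and 410 (3.22%) lower in CA1, or 8.67% in either direction. Both conditions called 574 genes with the same sign, which is 37.7% of the 8R calls and 52.1% of the NIC calls. Of the genes called in 8R, 671 higher and 664 lower ones had the same sign in NIC, whether called there or not, while 437 of the higher and 507 of the lower ones were not called in NIC. The NIC test had 3 unpaired arrays of each region and another fit, so the counts are not on equal terms. With no replicate block they were 433 in 8R and 438 in NIC. A gene not called in NIC need not have a changed difference. Over the genes tested the regional differences of 8R and NIC correlated with Pearson's r of 0.597, given as a description across genes, which share arrays and are not independent replicates. Their SDs over genes were 0.206 log2 in 8R and 0.204 in NIC.

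Many of the largest differences were nearly the same size in the controls. Wfs1 differed by 1.67 in 8R and 1.64 in NIC, and Plagl1 by -2.11 in 8R and -2.09 in NIC. Htr1b (1.48 in 8R, 1.36 in NIC), Epha7 (1.47 and 1.33), Cacng3 (1.22 and 1.1), Cpne7 (-1.47 and -1.34), Rxrg (-1.45 and -1.51), Htr2c (-1.40 and -1.36) and Nnat (-1.37 and -1.39) did likewise, in the same order of conditions. For these 9 genes the difference between 8R and NIC did not pass limma's test. Lox, Npas4 and Ptgs2 were the only genes among the 24 in which it did.

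**Figure D2:**
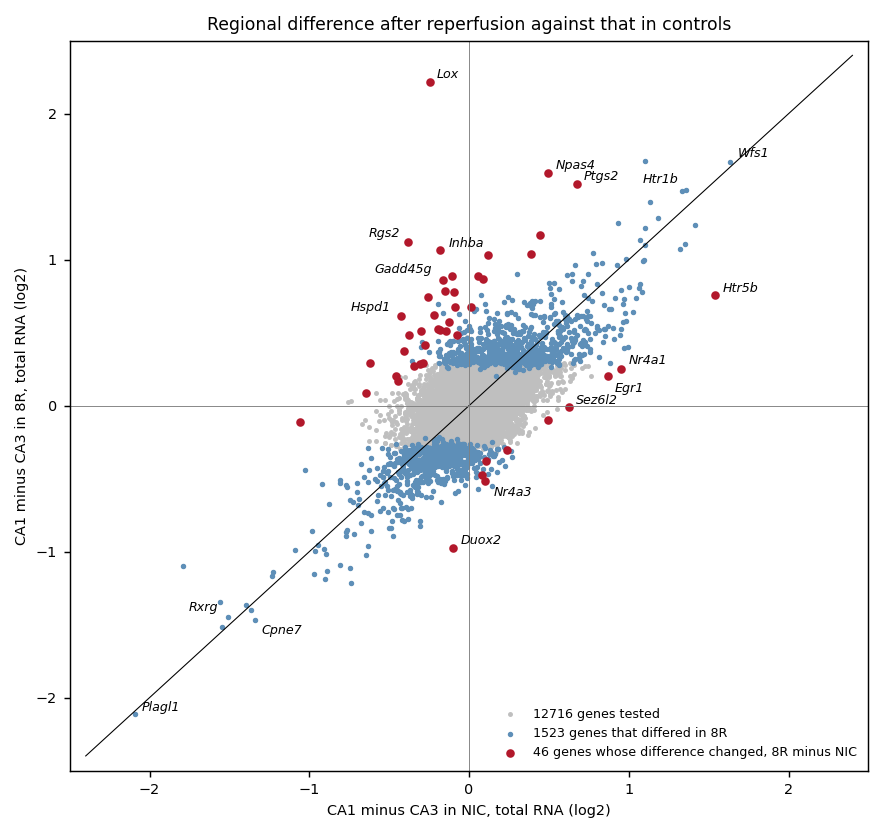
Regional difference, CA1 minus CA3 in log2 units, of 12716 genes in 8R (vertical axis) and NIC (horizontal axis) total RNA. Blue points were called in 8R and red points are the 46 genes whose regional difference differed between 8R and NIC. The line marks equal differences, and Lox lies farthest from it, at 2.22 in 8R and -0.25 in NIC.

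The regional difference itself changed with ischemia for 46 genes (0.362% of those tested), tested as the 8R difference minus the NIC difference in a fit of the 14 total RNA arrays. That fit uses a shared variance per gene, although the 8R arrays spread more than the NIC arrays. In it 1779 genes differed between the 8R regions, against 1523 in the fit of 8R alone. What the shared variance does to the error of 8R minus NIC was not tested. It was higher in 8R for 36 genes (0.283%) and lower for 10 (0.0786%), and 7 of the higher ones differed by at least 2-fold. At an unadjusted p under 0.05 there were 1321 genes. The higher genes made up 78.3% of the calls, but 55.2% of 105 calls after quantile normalization and 42.2% of 83 calls without 8R pool 4. Without the pool block within 8R 2 genes were called, so that this count rests on the pairing. Of the 46, 30 were called higher in 8R CA1 with a higher difference, and 5 were called lower in 8R CA1 with a lower one.

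Lox had the largest value in this test too, at 2.46 ± 0.25 (adjusted p = 2.84e-06), with the same limit of dim values outside 8R CA1. Next came Rgs2, a GTPase-activating protein that dampens Gq signalling. Rgs2 read 541, 628, 406 and 489 in 8R CA1 and 276, 226, 204 and 206 in 8R CA3, while in NIC it read 89.3, 83.3 and 86.1 in CA1 and 126, 108 and 119 in CA3. The order of the regions was opposite in the conditions, with no overlap in either, and the 8R arrays of both regions were above all NIC arrays. The regional difference was 1.12 in 8R and -0.38 in NIC, and the difference between them was 1.5 ± 0.13 (adjusted p = 1.49e-07). Inhba, the activin A subunit gene, read 198, 111, 122 and 269.8 in 8R CA1 and 74.2, 77.1, 52.4 and 81.8 in 8R CA3, against 28.9, 30.2 and 26.5 in NIC CA1 and 29.2, 31.1 and 44.7 in NIC CA3. Pools 1 and 4 of 8R CA1 were the highest, and the NIC regions overlapped (difference of differences 1.25 ± 0.19, adjusted p = 0.000968).

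Npas4 read 62.7, 45.5 and 81.9 in NIC CA1 and 38.2, 37.8 and 41.9 in NIC CA3, which leaves 8R minus NIC at 1.1 ± 0.18 (adjusted p = 0.00294). The growth arrest gene Gadd45g read 285, 206, 188 and 182 in 8R CA1 and 163, 123, 61.8 and 113 in 8R CA3, against 21.7, 16.6 and 22.7 in NIC CA1 and 23.9, 26.05 and 23.9 in NIC CA3. Both 8R regions were far above both NIC regions, and the 8R CA1 arrays did not overlap those of 8R CA3 (8R minus NIC 1.02 ± 0.16, adjusted p = 0.00147). For Ptgs2 the value was 0.85 ± 0.16 (adjusted p = 0.0114), where NIC read 116, 93.9 and 102 in CA1 and 68.3, 46.1 and 64.2 in CA3. The Ptgs2 call was lost at a pseudocount of 1 and without NIC CA3 replicate 3.

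Among the 10 genes that went the other way were immediate early genes that were higher in CA1 of the controls. Egr1, a zinc finger transcription factor gene, read 518, 369, 459.8 and 626 in 8R CA1 and 452, 345, 328 and 594 in 8R CA3, against 892, 837 and 909.7 in NIC CA1 and 449.9, 519 and 457 in NIC CA3. The NIC CA1 arrays stood above all others, and the remaining groups overlapped, so that the difference was 0.20 in 8R and 0.87 in NIC (8R minus NIC -0.66 ± 0.11, adjusted p = 0.00445). Nr4a1, an orphan nuclear receptor gene, read 199, 185, 241 and 287 in 8R CA1 and 184, 181, 157 and 231 in 8R CA3, against 404, 429 and 491 in NIC CA1 and 202, 236 and 222 in NIC CA3. It had the same arrangement, with NIC CA1 highest (8R minus NIC -0.70, adjusted p = 0.012). The related Nr4a3 was 144 ± 9.48 in 8R CA1 and 213 ± 20.8 in 8R CA3 (SD, n = 4 each), against 362 ± 4.47 in NIC CA1 and 338 ± 31.7 in NIC CA3 (SD, n = 3 each). It was lower in CA1 in 8R only, at -0.52 against 0.10 in NIC (8R minus NIC -0.62, adjusted p = 0.012).

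Htr5b, a serotonin receptor gene, read 62.8, 48.02, 86.8 and 48.6 in 8R CA1 and 31.6, 25.3, 32.8 and 26.9 in 8R CA3, against 141, 137 and 128 in NIC CA1 and 35.4, 33.8 and 38.4 in NIC CA3. CA1 exceeded CA3 without overlap in both conditions, with the 8R CA1 arrays below the NIC CA1 arrays, and the regional difference was 0.76 in 8R and 1.54 in NIC (8R minus NIC -0.79 ± 0.14, adjusted p = 0.00672). Duox2, a dual oxidase gene, was the largest fall at -0.88 ± 0.20 (adjusted p = 0.0403). It read 21.7, 33.2, 28.8 and 27.8 in 8R CA1 and 68.5, 57.9, 69.9 and 85.6 in 8R CA3, where the 8R CA3 arrays were above those of all other total RNA groups. Sez6l2, a neuronal membrane protein gene, differed by -0.01 in 8R and 0.62 in NIC (8R minus NIC -0.63, adjusted p = 0.0363). The calls of Duox2 and Sez6l2 were lost without several single arrays or pools, those of 8R pool 1 and NIC CA3 replicate 3 included. Nr4a1 was not called without 8R pool 1, NIC CA1 replicate 3 or NIC CA3 replicate 1, and Nr4a3 not without NIC CA1 replicate 3 or NIC CA3 replicate 1 or 3.

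**Figure D3:**
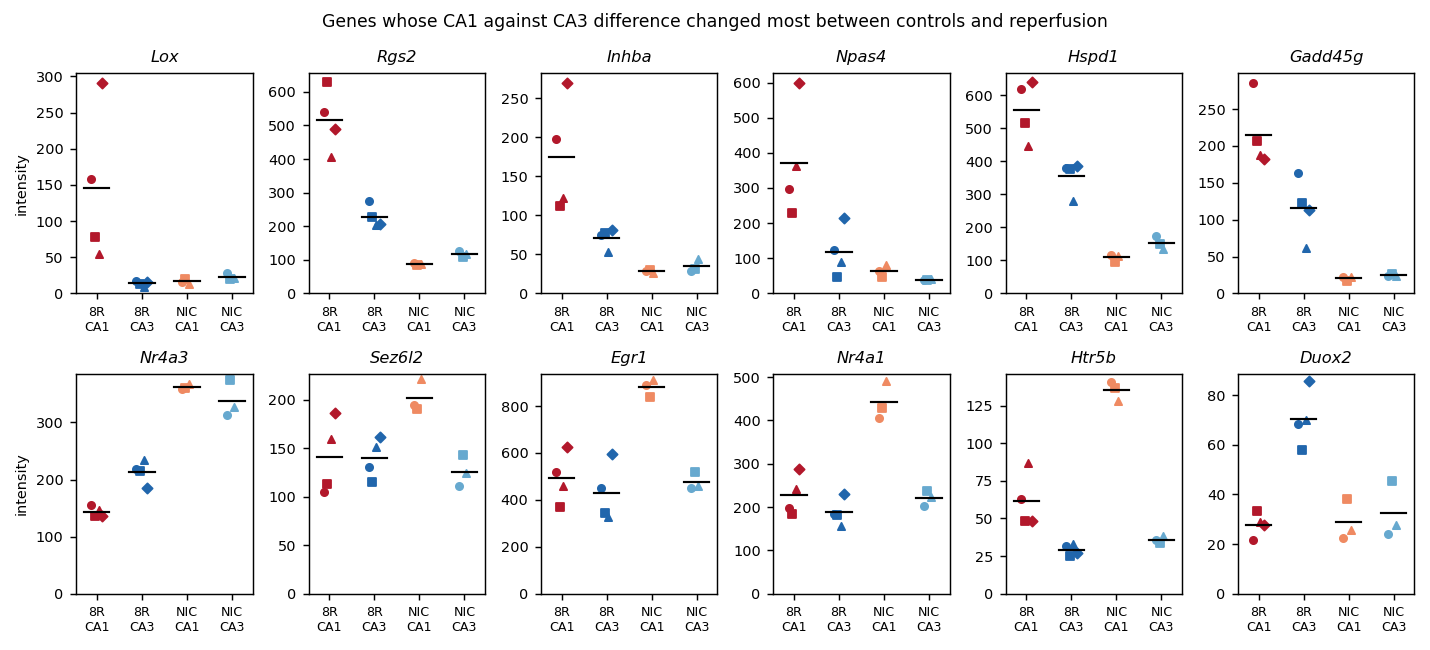
Intensity on linear axes of the 6 genes with the largest increase (upper row) and the 6 with the largest decrease (lower row) of the regional difference in 8R relative to NIC, in 4 groups of total RNA arrays. Points are arrays, with circle, square, triangle and diamond for pool or replicate number 1 to 4, and bars are means. In the upper row 8R CA1 has the highest mean of each gene, and in the lower row the 8R CA1 mean is below the NIC CA1 mean for each gene.

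Exactly 5 genes were called in both conditions with opposite signs, all of them higher in 8R CA1 and lower in NIC CA1. They were chosen after their values were seen, and besides Rgs2 they were the chaperone genes Hspd1, Hspe1 and Dnaja1, and Ociad2, which encodes a mitochondrial protein. Ociad2 read 463, 443, 404 and 516 in 8R CA1 and 361, 304, 241 and 399.6 in 8R CA3, against 105, 99.4 and 109 in NIC CA1 and 140.0, 130.5 and 151 in NIC CA3 (8R minus NIC 0.86 ± 0.12, adjusted p = 0.000598). All 8R arrays exceeded all NIC arrays, and the gene is known as a CA3 marker.

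Heat shock proteins refold or hold damaged proteins, and heat shock factor induces their genes through arrays of the pentamer NGAAN. Of 22 tested heat shock and cytosolic chaperone genes 7 were higher in 8R CA1 and 0 lower, with a list median of 0.11 beside -0.01 for all genes. In NIC 2 were higher and 1 lower (median -0.03). The leaders were Dnajb5 (0.68), the Hsp110 gene Hsph1 (0.49), the small heat shock protein gene Cryab (0.47) and the co-chaperone gene Bag3 (0.39). In NIC the same differences were 0.51 for Dnajb5, -0.07 for Hsph1, 0.44 for Cryab and -0.02 for Bag3. Among these leaders only Hsph1 passed limma's test of 8R minus NIC. Hsph1 read 2122, 1779.8, 1719 and 2223 in 8R CA1 and 1552, 1382, 1018 and 1698 in 8R CA3, against 458, 422 and 451 in NIC CA1 and 431, 484 and 489.7 in NIC CA3. Pool 3 was low in both 8R regions and the 8R regions did not overlap. Without pool 1 the list count was 4, and without the pool block it was 1.

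In the list of 12 mitochondrial chaperones and proteases, 3 genes were higher in 8R CA1 and 0 lower (median 0.03), while in NIC 0 were higher and 2 lower. Hspd1 encodes Hsp60, the folding chamber of the mitochondrial matrix, and Hspe1 its lid Hsp10. Hspd1 read 619, 515, 446 and 639 in 8R CA1 and 380.2, 377, 281 and 385 in 8R CA3, against 117, 95.6 and 114 in NIC CA1 and 174, 148 and 134 in NIC CA3. The 8R regions did not overlap, CA1 being above, and neither did the NIC regions, where CA1 was below. The regional difference was 0.61 ± 0.09 in 8R and -0.43 ± 0.10 in NIC, and 8R minus NIC was 1.04 ± 0.13 (adjusted p = 8.6e-05). Hspe1 read 888, 787, 731 and 1064 in 8R CA1 and 658, 618, 521 and 892 in 8R CA3, which overlapped across pools although CA1 was higher within each pool. It had 326, 278 and 363 in NIC CA1 and 415, 418 and 461 in NIC CA3 (8R minus NIC 0.78 ± 0.12, adjusted p = 0.000968). Hspa9, the mitochondrial Hsp70, was also higher in 8R CA1 (0.26), and its call was lost without pool 1, 3 or 4.

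Of the 34 members of both chaperone lists, 4 had a regional difference that changed between 8R and NIC, namely Hspd1, Hspe1, Hsph1 (0.56) and the Hsp40 gene Dnaja1 (0.59). Dnaja1 read 1544, 1275, 1272 and 1615 in 8R CA1 and 1259, 1131, 974 and 1318 in 8R CA3, against 419, 350.4 and 492 in NIC CA1 and 515, 517 and 523 in NIC CA3. Its 8R call was lost without pool 1 or 3, and its 8R minus NIC call without 8R pool 1 or 3, NIC CA1 replicate 2 or NIC CA3 replicate 3. The call of Hsph1 in that test was lost without NIC CA3 replicate 3. Promoter windows of these 4 genes, from 250 bases before to 50 after the start in RefSeq's annotation of GRCr8, are shown because all of them hold a heat shock element. It was searched on both strands as 3 adjoining copies of the pentamer NGAAN, the middle one as its reverse complement and the outermost N left out, and is marked in capitals, overlapping matches included.
Hspd1 (chr9:64083988-64084287, minus strand): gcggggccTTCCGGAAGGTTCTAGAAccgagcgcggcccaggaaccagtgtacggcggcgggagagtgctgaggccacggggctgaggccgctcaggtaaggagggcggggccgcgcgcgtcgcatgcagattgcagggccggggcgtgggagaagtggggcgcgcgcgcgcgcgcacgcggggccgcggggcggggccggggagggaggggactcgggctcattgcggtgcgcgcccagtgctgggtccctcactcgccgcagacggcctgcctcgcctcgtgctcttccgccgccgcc
Hspe1 (chr9:64084077-64084376, plus strand): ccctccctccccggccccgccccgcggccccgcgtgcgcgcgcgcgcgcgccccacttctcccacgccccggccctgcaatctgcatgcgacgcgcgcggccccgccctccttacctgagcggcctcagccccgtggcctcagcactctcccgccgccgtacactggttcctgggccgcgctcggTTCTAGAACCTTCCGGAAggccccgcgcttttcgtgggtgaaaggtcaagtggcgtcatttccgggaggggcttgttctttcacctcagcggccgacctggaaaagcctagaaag
Hsph1 (chr12:10427118-10427417, plus strand): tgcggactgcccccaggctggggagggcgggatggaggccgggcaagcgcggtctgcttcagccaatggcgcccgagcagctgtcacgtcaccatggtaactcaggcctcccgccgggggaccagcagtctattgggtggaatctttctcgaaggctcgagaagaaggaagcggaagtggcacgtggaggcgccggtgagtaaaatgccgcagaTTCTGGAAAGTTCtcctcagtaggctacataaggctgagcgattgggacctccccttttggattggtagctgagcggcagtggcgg
Dnaja1 (chr5:60638154-60638453, plus strand): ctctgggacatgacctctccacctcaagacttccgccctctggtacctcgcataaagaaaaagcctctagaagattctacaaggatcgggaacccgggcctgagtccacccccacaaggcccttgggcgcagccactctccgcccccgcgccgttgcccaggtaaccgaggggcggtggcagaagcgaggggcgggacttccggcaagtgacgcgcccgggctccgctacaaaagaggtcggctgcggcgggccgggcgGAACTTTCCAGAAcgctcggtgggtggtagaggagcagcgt
The motif on either strand is in 267 of 33469 promoter windows of the same length (0.798%). Hspd1 and Hspe1 lie head to head, their starts 290 bases apart, so their windows share 211 of 300 bases and their capitals are the same stretch read on opposite strands. Of 19 heat shock and cytosolic chaperone genes with a window 4 held the motif, among them Chordc1 and Hspa8, and of the mitochondrial list 2 of 9 did. A match is a description of these letters and shows no binding.

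The unfolded protein and integrated stress responses restore folding in the endoplasmic reticulum and slow translation. Of 25 tested genes of this list 9 were higher in 8R CA1 and 1 lower (median 0.19), against 1 and 0 in NIC. Without pool 1 the higher count was 5, and without pool 3 it was 4. Without the pool block 1 was higher and 0 lower. Hspa5, the endoplasmic reticulum chaperone BiP, read 416, 327, 359 and 482 in 8R CA1 and 296, 213, 259.7 and 307 in 8R CA3, with all CA1 arrays above CA3 (difference 0.53, adjusted p = 2.84e-05). Ppp1r15a, the phosphatase subunit GADD34 that reverses eIF2 phosphorylation, read 204, 144, 124 and 181 in 8R CA1 and 106, 105, 67.3 and 171 in 8R CA3 (difference 0.52). CA1 was higher within each pool, but pool 4 of CA3 exceeded the CA1 arrays of pools 2 and 3. Herpud1, of endoplasmic reticulum-associated degradation, differed by 0.46. Atf3, a transcription factor of the integrated stress response, went the other way. It read 163, 111, 96.1 and 125 in 8R CA1 and 211, 213, 95.8 and 261 in 8R CA3, against 8.88, 4.29 and 16.4 in NIC CA1 and 10.01, 22.8 and 17.6 in NIC CA3. Pool 3 had nearly equal values in the regions and the other 3 pools were lower in CA1 (difference -0.54, adjusted p = 0.00044).

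**Figure D4:**
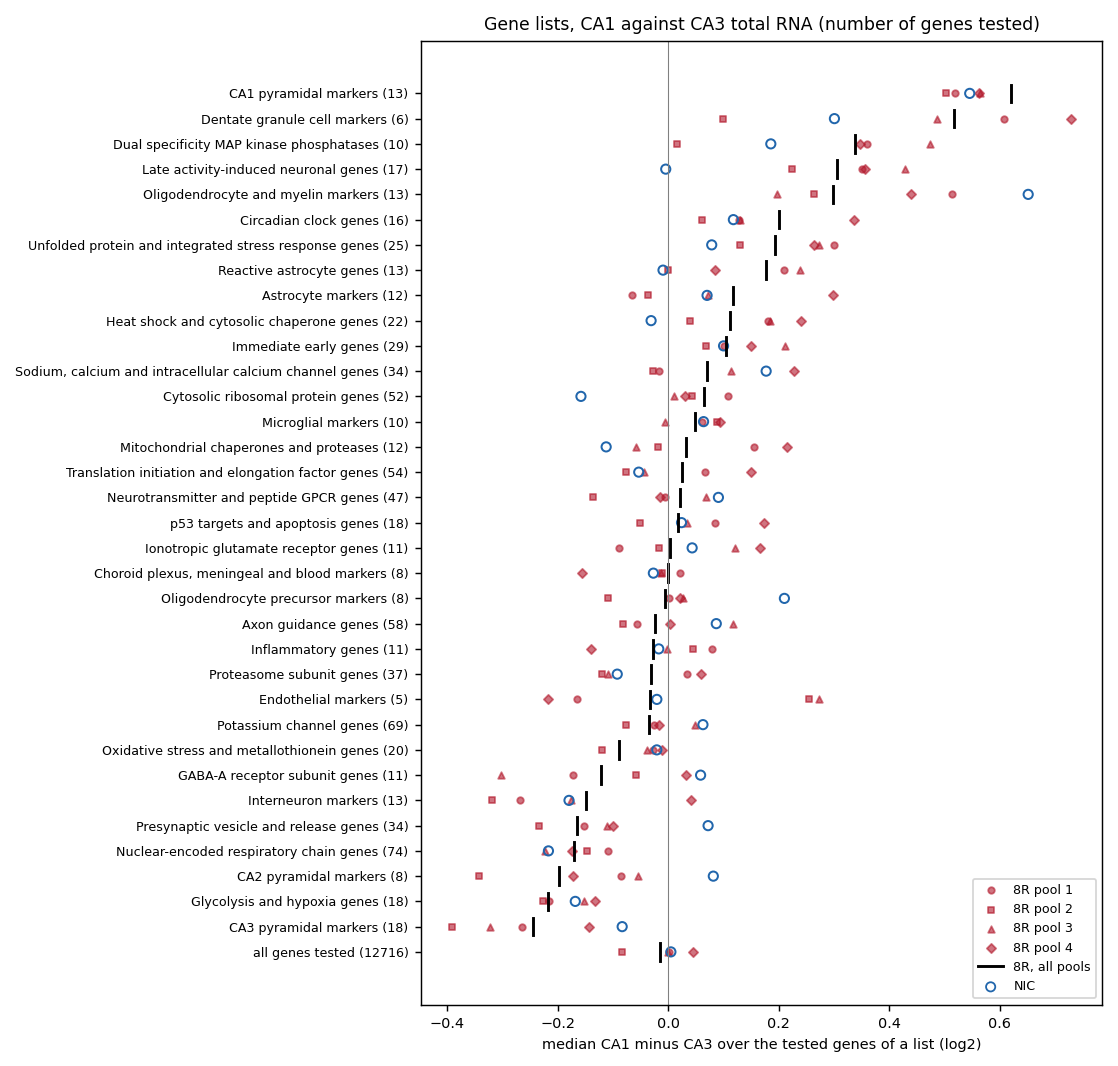
Median log2 difference, CA1 minus CA3 in total RNA, over the tested genes of 34 gene lists and of all genes, with the number of genes tested in brackets. Red symbols are the medians within each 8R pool, black bars the medians of the 8R estimates and blue circles those of NIC, and a median of estimates can lie outside the pools' medians. Among the 8R estimates the median of CA1 markers is highest and that of CA3 markers lowest, but within pools 1 and 4 dentate granule cell markers lie above CA1 markers, and CA3 markers are not lowest there.

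Neuronal activity induces genes in waves. Of 29 tested immediate early genes, which activity induces first, 8 were higher in 8R CA1 and 1, Nr4a3, was lower (median 0.10). In NIC 11 were higher and 1 lower (median 0.10). After Npas4 and Arc came Ier5, which read 260.0, 233, 239 and 244 in 8R CA1 and 112, 100.1, 78.9 and 112 in 8R CA3, against 85.8, 76.7 and 97.8 in NIC CA1 and 53.4, 65.7 and 59.5 in NIC CA3. The 8R CA1 arrays were level and above all others (difference 1.17 in 8R, 0.44 in NIC, 8R minus NIC 0.72 with adjusted p = 0.012). Of 17 late activity-induced genes 8 were higher in 8R CA1 and 0 lower (median 0.31), against 3 and 2 in NIC (median 0.00). Their largest differences were those of Ptgs2, Rgs2, Inhba and Gadd45g. In 5 of these 17 genes the regional difference was higher in 8R than in NIC by its own test. Among the 29 immediate early genes it was higher in 2, Npas4 and Ier5, and lower in 3, Nr4a1, Egr1 and Nr4a3.

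Dual specificity phosphatases switch off MAP kinases and are induced by them, and some of them also stand in the immediate early list. Of 10 tested, 6 were higher in 8R CA1 and 0 lower (median 0.34), and in NIC 4 and 0. The higher count was 3 without pool 3. Dusp6, which acts on ERK, read 414, 395, 372 and 321 in 8R CA1 and 212, 174, 127 and 161 in 8R CA3, without overlap, and differed by 1.1 in 8R and by 1.1 in NIC. Dusp4 (0.51), Dusp1 (0.50) and Dusp2 (0.40) overlapped between the regions across pools. The cAMP response element TGACGTCA was held by the windows of Dusp1 among 5 higher immediate early genes with a window and of Vgf among 8 higher late genes. Over the tested members with a window it was held by 4 of 19 immediate early genes, Dusp1, Ier2, Jund and Maff, and by 2 of 14 late genes, Scg2 and Vgf, where 1.829% of all windows hold it.

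Identity markers followed the dissected field for most of the CA1 list and for fewer members of the CA3 list. Of 13 CA1 pyramidal markers 9 were higher in 8R CA1 and 1 lower (median 0.62), with 12 and 1 in NIC (median 0.55). Beside Wfs1 and Ccn3 the leaders were the potassium channel gene Kcnh7 (1.11) and the POU transcription factor gene Pou3f1 (0.81). Of 18 CA3 markers 8 were lower in 8R CA1 and 1, Ociad2, was higher (median -0.24), with 4 and 0 in NIC (median -0.08). Rxrg was followed by the M-current channel gene Kcnq5 (-0.96), St18 (-0.86) and Socs2 (-0.51). CA2 markers, from the strip between the fields, were split, with 3 higher and 4 lower of 8: Adcy1 (0.84) and Rgs14 (0.54) were higher in 8R CA1, and Stard5 (-0.66) and Pcp4 (-0.44) lower. Without pool 1 the lower count was 2.

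Markers of other cells of the dissected tissue moved too, and their part in the other results was not tested. Dentate granule cells lie next to both fields. Of 12 symbols 6 were tested, and 5 were higher in 8R CA1 (median 0.52), 2 in NIC (median 0.30). Prox1, their defining transcription factor gene, read 67.2, 60.98, 95.9 and 81.2 in 8R CA1 and 34.97, 64.4, 61.5 and 26.6 in 8R CA3, which overlapped (difference 0.59). Calb1, a calcium buffer of granule cells and of CA1 pyramidal cells, read 567, 376, 376 and 548 in 8R CA1 and 336, 274, 273 and 177 in 8R CA3, against 243, 181 and 195 in NIC CA1 and 263, 189.7 and 239 in NIC CA3. The 8R CA1 arrays were above all others (8R minus NIC 0.94 ± 0.20, adjusted p = 0.0275), and the call was lost without 8R pool 1 or any of 4 single NIC arrays. Trpc6 (0.56), Stxbp6 (0.47) and C1ql2 (0.41) were the other called members, and the mean log2 level of the tested members ranged from 7.27 to 7.63 in 8R CA1 and from 6.78 to 7.14 in 8R CA3.

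Oligodendrocyte and myelin markers were higher in 8R CA1 for 9 of 13 members (median 0.30), and in NIC for 12 (median 0.65). Their mean log2 level ranged from 7.82 to 8.05 in 8R CA1 and from 7.53 to 7.65 in 8R CA3, and without pool 1 the count was 3. Cldn11, a myelin tight junction gene, read 211, 172, 143 and 238 in 8R CA1 and 115, 136, 128 and 139.6 in 8R CA3, with the lowest CA1 array just above the highest CA3 array (difference 0.48 in 8R, 0.94 in NIC). Opalin (0.48), Tspan2 (0.46) and Mal (0.45) gave like values. In interneuron markers 1 of 13 was higher and 5 lower (median -0.15, mean log2 level from 6.97 to 7.26 in 8R CA1 and from 7.26 to 7.34 in 8R CA3). The lower count was 3 without pool 2, and the higher count 2 without pool 4. Calb2, for calretinin, read 43.7, 35.8, 40.9 and 36.98 in 8R CA1 and 106, 98.9, 111 and 65.4 in 8R CA3, without overlap (difference -0.99), Nos1 differed by -0.88, Lhx6 by -0.50 and the neuropeptide gene Npy, also induced by activity, by 0.71.

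Oligodendrocyte precursor (8 tested), microglial (10), endothelial (5) and inflammatory (11) genes had 0 calls in either direction by limma, where 1 endothelial gene alone had an unadjusted p under 0.05, with medians between -0.03 and 0.05. Astrocyte markers had 1 call in 12, the amino acid transporter gene Slc7a10 (-0.36). Choroid plexus, meningeal and blood markers had 1 call in 8, the hemoglobin gene Hba-a1 (0.29). Each of these calls was lost without pool 1, and the shares of both lists were near the 12% of all genes. Reactive astrocyte genes were higher for 4 of 13 (median 0.18), and 2 without pool 3. Gfap, the astrocytic intermediate filament gene, read 918, 869.5, 886 and 799.7 in 8R CA1 and 634, 660.0, 471 and 512 in 8R CA3, without overlap, and differed by 0.61 in 8R and 0.68 in NIC. The other calls were the protease inhibitor gene Timp1 (0.65), the sphingosine receptor gene S1pr3 (0.38) and Hspb1 (0.37), each with overlapping regions. Within pools 1 to 4 S1pr3 differed by -0.003, 0.10, 0.51 and 0.93, and Hspb1 by 0.32, 0.0001, 0.98 and 0.18.

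In the p53 and apoptosis list 2 of 18 were higher and 1 was lower, a share near the 12% of all genes, and without pool 2 the higher count was 4. Gadd45a, a growth arrest gene, read 145, 98.5, 88.3 and 91.1 in 8R CA1 and 79.5, 61.6, 56.2 and 52.1 in 8R CA3, with all CA1 arrays above (difference 0.63, adjusted p = 5.09e-06). The anti-apoptotic gene Bcl2 read 111, 131, 135 and 143 in 8R CA1 and 199, 182, 231 and 171 in 8R CA3, with all CA1 arrays below, and differed by -0.53 in 8R and equally by -0.53 in NIC. Ccng1, for cyclin G1, was higher by 0.25, a call lost without pool 1, 3 or 4. Of 20 oxidative stress and metallothionein genes 2 were higher and 0 lower, a share below the 12% of all genes. The metal-binding protein gene Mt1 read 1711, 1161, 1115 and 2035 in 8R CA1 and 721, 756, 654 and 1788 in 8R CA3 (difference 0.69, adjusted p = 1.86e-07), with pool 4 of CA3 above all CA1 arrays but one. Its homologue Mt2A differed by 0.36.

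Of 34 tested genes of vesicles and release 13 were lower and 0 higher in 8R (median -0.17), where NIC had 5 lower and 4 higher (median 0.07). The difference between 8R and NIC passed limma's test in 0 members, and 15 had an unadjusted p under 0.05. The 8R count of lower genes was 6 without the pool block. Syn2, a synapsin that ties vesicles to the cytoskeleton, read 682, 660.3, 809 and 682 in 8R CA1 and 1198, 1301, 1315 and 996 in 8R CA3. No array overlapped, and the difference was -0.75 ± 0.08 in 8R and -0.45 ± 0.08 in NIC. Stx1a, the SNARE syntaxin 1A, read 171, 174, 174 and 131 in 8R CA1 and 293, 323, 326 and 177 in 8R CA3, pool 4 being lowest in both regions (difference -0.70). Cplx1, a complexin that clamps the SNARE complex, differed by -0.61, and the active zone scaffold gene Bsn by -0.58.

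Receptor and channel genes were split between the fields. Of 11 ionotropic glutamate receptor genes 3 were higher in 8R CA1 and 2 lower. The NMDA receptor subunit gene Grin2a read 182, 179.6, 287 and 185 in 8R CA1 and 125, 139.6, 171 and 99.2 in 8R CA3, with pool 3 highest in both (difference 0.58 in 8R, 0.98 in NIC). The AMPA receptor subunit gene Gria3 (0.52) and Grin2b (0.37) were also higher, while the kainate receptor subunit gene Grik4 (-0.38) and Grin3a (-0.32) were lower. The Grin2b call was lost without pool 3 or 4, that of Grik4 without pool 3 and that of Grin3a without pool 1, 2 or 3. Of 11 GABA-A receptor subunit genes 2 were higher and 3 lower. Gabra4 read 249.5, 202, 255 and 291 in 8R CA1 and 151, 139, 158 and 99.9 in 8R CA3, with all CA1 arrays above (difference 0.80), and Gabrb2 differed by 0.50. Gabra3 read 86.2, 65.3, 63.1 and 95.5 in 8R CA1 and 161, 159, 208 and 134 in 8R CA3, with all CA1 arrays below (difference -0.96), and Gabrg3 (-0.45) and Gabra5 (-0.38) were lower too. Without pool 2 the Gabrg3 call was lost.

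Among 47 transmitter and peptide receptors of the G protein-coupled kind 5 were higher and 7 lower, and without pool 2 there were 8 higher and 6 lower. Beside Htr1b, Htr2c and Htr5b stood the neuropeptide Y receptor gene Npy2r, which read 25.6, 13.7, 15.01 and 16.5 in 8R CA1 and 32.2, 38.7, 42.2 and 40.2 in 8R CA3, all CA1 arrays being below (difference -0.70). Potassium channel genes were higher for 6 and lower for 7 of 69. Kcnh7 read 111, 92.5, 150.3 and 124 in 8R CA1 and 47.02, 53.6, 53.2 and 32.9 in 8R CA3, and the G protein-gated channel gene Kcnj6 differed by 0.58. Kcnq5 read 107, 85.1, 106 and 116 in 8R CA1 and 201, 224, 263 and 181 in 8R CA3, and Kcnf1 differed by -0.86. Of 34 sodium, calcium and intracellular calcium channel genes 7 were higher and 2 lower, and 4 and 0 without pool 1. The largest called difference was that of Cacng3, an AMPA receptor auxiliary subunit gene that stood in this list. Next were the sodium channel beta subunit gene Scn3b (0.69) and the calcium channel subunit genes Cacna2d1 (0.68) and Cacna2d3 (0.40).

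Axon guidance genes were higher for 9 and lower for 8 of 58, the lower count being 3 without pool 1 or 2 and 4 without pool 3. After Epha7 the largest was Slit2, a repellent ligand, with 39.9, 22.5, 26.7 and 37.1 in 8R CA1 and 85.1, 80.5, 96.8 and 76.1 in 8R CA3. All CA1 arrays were below CA3 (difference -1.09 in 8R, -0.81 in NIC). The semaphorin genes Sema5a (0.97) and Sema3c (0.90) were higher in 8R CA1, and for Sema3c NIC gave 0.74.

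Few genes of the ribosome, translation and proteasome lists were called in 8R. Of 52 cytosolic ribosomal protein genes 1 was higher (Rpl6, 0.25) and 1 lower (Rps16, -0.35) in 8R CA1 (median 0.06), and after quantile normalization 4 were higher. In NIC 0 were higher and 4 lower (median -0.16). The median 8R minus NIC difference of this list was 0.21, and that difference passed limma's test in 0 members, where 18 had an unadjusted p under 0.05. Of 54 translation factor genes 1 was higher (Eif2s2, the beta subunit of eIF2, 0.36) and 1 lower (Eef1a2, -0.23), and of 37 proteasome genes 1 was higher (Psmb2, 0.30). Rps16 was dim, with means of 32.5 in 8R CA1 and 44.95 in 8R CA3, and its sign was opposite in pool 3 (0.13). All 5 calls were lost without pool 1. These shares were below the 12% of all genes.

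Respiratory chain genes were lower for 15 and higher for 0 of 74 (median -0.17), and in NIC 21 were lower and 0 higher (median -0.22). The median was below 0 in each of the 4 pools, but the count was 4, 8 and 3 without pool 1, 2 or 3, and 0 without the pool block. Ndufv1, of complex I, read 382, 364, 359.8 and 257 in 8R CA1 and 465, 499, 483 and 349 in 8R CA3, pool 4 being lowest in both (difference -0.38). Ndufs8 (-0.34) and the ATP synthase genes Atp5mc1 (-0.38) and Atp5po (-0.36) were close to it. Glycolysis and hypoxia genes were lower for 7 and higher for 2 of 18 (median -0.22, in NIC -0.17). Pfkl, a phosphofructokinase gene, read 305, 288, 305 and 214 in 8R CA1 and 451, 467, 486 and 365 in 8R CA3, with all CA1 arrays below (difference -0.64). Pfkp (-0.41) and the lactate dehydrogenase gene Ldha (-0.42) were lower, and the collagen hydroxylase gene P4ha1 was higher (0.44).

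Circadian clock genes were higher for 5 and lower for 0 of 16 (median 0.20, in NIC 0.12). The repressor gene Bhlhe41 read 316, 281, 287 and 486 in 8R CA1 and 176, 165, 166 and 178 in 8R CA3, with pool 4 of CA1 far above the rest and CA3 level (difference 0.90). The period gene Per2 differed by 0.44. Rorb (0.30), Nr1d1 (0.29) and Bhlhe40 (0.28) completed the list, whose count was 2 without pool 1 or 3 and 3 without pool 4. The hour of tissue collection is not given in the sources used here.

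Polysome RNA of pools with the same numbers, 3 arrays of 8R CA1 and 4 of 8R CA3, gave the regional comparison in another fraction. There the median over all genes was itself shifted towards CA1, by 0.19 log2, and 43.3% of genes were called, 41.2% as higher in CA1. These were 95.1% of the calls, but 56.1% after quantile normalization, so values are to be read against that shift. Lox differed by 1.54 in polysome RNA, Npas4 by 2.01, Ptgs2 by 1.91, Wfs1 by 2.29 and Plagl1 by -2.12. Rgs2 was at 1.00 and Hspd1 at 0.55, on the same side as in total RNA. Duox2 was at 0.28 in polysome RNA, near the shift of all genes, although it was -0.98 in total RNA. Whether fractions differed was not tested.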

How the data were processed

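Total RNA of CA1 and CA3 was measured on Affymetrix Rat Gene 2.0 arrays. The deposited values are linear intensities, 1 per probe set and array, made with PLIER in Affymetrix Expression Console per the submitters' processing notes, with no version given. How the authors scaled arrays to each other is not given in the sources used here, and 27 arrays, 3 or 4 in a group, limit the precision. Genes were named from the platform annotation for probe sets with 1 symbol, of which 18394 matched a RefSeq gene record. From these intensities log2(intensity + 16) was computed, the brightest probe set was kept for each of 18166 genes (291 had several), and genes with a mean under the 30th percentile were left out.

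The comparison of 8R CA1 with 8R CA3 was fitted in R 4.3.3 with limma 3.58.1 on 8 arrays, with the pool number as a block and the prior variance following intensity (3 residual and 43.1 prior degrees of freedom). NIC and the difference of differences came from a fit of 14 total RNA arrays with the pool as a block within 8R (7 residual and 18.5 prior degrees of freedom). Every test was two-sided with Benjamini-Hochberg adjustment over all genes tested, and all p-values and calls in the text are limma's. The fits were tested on simulated data.

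The labels do not say whether a pool number marks the same rats. Deviations from the group means of same-numbered 8R arrays correlated at 0.268, 0.124, 0.349 and 0.54, all over 0.1, and the numbers were taken as pairs. CA1 pool 2 correlated more with CA3 pool 1 (0.188), and CA3 pool 2 more with CA1 pool 3 (0.225). In NIC the values were 0.00317, 0.0341 and 0.0991, and the numbers were not used as pairs. The labels do not say whether pools came from separate cohorts, so p-values hold for these pools only. In the 8R fit the block takes out the level of a pool. Its p-values rest on how the CA1 minus CA3 difference varied among the pools. With 3 residual against 43.1 prior degrees of freedom, that error was drawn mostly from other genes of like intensity. For NIC and 8R minus NIC the shared variance also holds the spread between NIC arrays of a region.

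Named genes were the 12 largest called differences in each direction whose arrays did not overlap, the 6 largest called 8R minus NIC differences in each direction, up to 4 called members of each of 34 gene lists, or all where 5 or fewer were called, and the genes called with opposite signs in the conditions. Members and lists were chosen with earlier results of these data known, so lists are described by counts and medians, with no test of their own. Alternatives covered the block, the arrays fitted, the pseudocount, scaling, filter, probe set rule, variance trend, array weights and each replicate.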

Additional observations from a re-analysis of the deposited data

Results flagged for a closer look

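The regional difference, CA1 minus CA3 in total RNA, was larger in 8R than in NIC by limma's test of that difference for Lox by 2.46 log2, Rgs2 by 1.5, Inhba by 1.25, Npas4 by 1.1, Hspd1 by 1.04, Gadd45g by 1.02, Calb1 by 0.94, Ociad2 by 0.86, Ptgs2 by 0.85, Hspe1 by 0.78, Ppp1r15a by 0.72, Ier5 by 0.72, Dnaja1 by 0.59 and Hsph1 by 0.56. It was smaller in 8R for Duox2 at -0.88, Htr5b at -0.79, Nr4a1 at -0.7, Egr1 at -0.66, Sez6l2 at -0.63 and Nr4a3 at -0.62. The Ppp1r15a value, with an adjusted p of 0.047, lost its call without 8R pool 1, 2 or 3 or any single NIC array, at a pseudocount of 1 and after quantile normalization.

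Single arrays far from the other 3 of their group were found by Dixon's 95% critical value in 24 of 250 groups of 4 arrays checked, where chance gives about 1 in 20. The value is the gap to the nearest array divided by the range of the group. In 8R CA1 pool 4 was high for Vwa5al1 (0.889) and S1pr3 (0.843) and low for Stx1a (0.943), Ndufv1 (0.845), Atp5po (0.851), Ndufs8 (0.868) and Pfkl (0.834). Pool 3 was high there for Grin2a (0.94), Syn2 (0.84) and Bhlhe40 (0.87), and pool 2 low for Hpcal1 (0.909) and Cacna2d1 (0.948). In 8R CA3 pool 4 was low for Nr2f2 (0.882), Pou3f1 (0.843), Tspan2 (0.846), Atp5po (0.849), Ndufs8 (0.859) and Rorb (0.882), and high for Mt1 (0.857). Pool 3 was low there for Hspd1 (0.93), C1ql2 (0.942) and Eif2s2 (0.911), pool 2 low for Kcnf1 (0.917) and pool 1 low for Atp5mc1 (0.843). What set pool 4 apart was not tested.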

How the results depend on the processing

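The count of 1523 genes in 8R was 433 with no replicate block, 843 with no replicate block in a fit of all 27 arrays, 2381 with array weights, and from 792 to 1694 when a pool was left out, with pool 1 giving the lowest and pool 4 the highest. Pseudocounts of 1 and 64, quantile normalization, other filters, no trend, all probe sets and the fit of 14 arrays gave 1178 to 1875. The 46 genes of the 8R minus NIC difference were 2 with no replicate block and 3 in that fit of all 27 arrays, 105 after quantile normalization, 30 with no filter, 211 with array weights (46.9% of them higher) and 53 with a replicate block in both conditions. Leaving out a pool or an array gave 20 (NIC CA3 replicate 3) to 83 (8R pool 4), with 21 without 8R pool 1, 30 and 25 without NIC CA1 replicate 2 or 3, 31 and 76 without NIC CA3 replicate 1 or 2. The NIC count of 1102 was 438 with no replicate block in the fit of 14 arrays, and 1255 in a fit of the 6 NIC arrays alone. It was 686 to 991 when an array was left out. The polysome count of 5504 was 1075 with no replicate block, 2287 after quantile normalization, which moved the median to -0.006, and 4159 to 5505 when a pool was left out. Of 125 named genes, 52 lost their 8R call with no replicate block, 19 without pool 1, 6 without pool 2, 19 without pool 3, 10 without pool 4 and 11 with no filter. The single reversal was that of Sez6l2, not called in 8R, at 0.079 without pool 1, -0.080 without pool 4 and -0.01 with all pools. Of the 12 genes named for the 8R minus NIC difference, Lox and Rgs2 alone kept their call with no replicate block, and 12 of 12 kept it with a block in both conditions. The causes of these shifts were not tested. Signal over background could not be used as a limit, since the deposited values hold no detection call, and 4 arrays against 4 bound the precision.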

Other observations

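Other genes whose regional difference was larger in 8R than in NIC were picked singly here after their values were seen, so that nothing follows for the families they belong to. Eprs1, for an aminoacyl-tRNA synthetase, differed by 0.57 log2 in 8R and -0.12 in NIC (8R minus NIC 0.70, limma adjusted p = 0.012). Cars1, of the same kind, differed by 0.42 in 8R and -0.28 in NIC (8R minus NIC 0.69, adjusted p = 0.012), and Tars1 by 0.29 in 8R and -0.29 in NIC (8R minus NIC 0.58, adjusted p = 0.0303). For Acvr1c, an activin-type receptor gene, 8R minus NIC was 0.92 (adjusted p = 0.00514), and for Pmepa1 it was 0.83 (adjusted p = 0.000968).

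The developmental transcription factor gene Sox11 differed by 0.89 in 8R and -0.11 in NIC (8R minus NIC 0.99, adjusted p = 0.0141). Perp, a p53 target, differed by 0.75 in 8R and -0.26 in NIC (8R minus NIC 1.00, adjusted p = 0.0114), and the hedgehog co-receptor gene Cdon by 1.03 in 8R and 0.12 in NIC (8R minus NIC 0.91, adjusted p = 0.00146). Nptx2, a secreted synaptic pentraxin induced by activity, differed by 0.68 in 8R and -0.09 in NIC (8R minus NIC 0.77, adjusted p = 0.0288). In the opposite direction, the ubiquitin ligase gene Fbxl16 differed by -0.38 in 8R and 0.11 in NIC (8R minus NIC -0.48, adjusted p = 0.0363), and Rab1b, a GTPase of transport between endoplasmic reticulum and Golgi, by -0.30 in 8R and 0.24 in NIC (8R minus NIC -0.54, adjusted p = 0.0193).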
